A study of Homo sapiens with 4 samples.

Results

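The BCL2 family genes BCL2, BCL2L1, MCL1, BAX, BAK1, BIK, BBC3 and PMAIP1 and the p53 regulator gene MDM2 were followed through the first days of blood differentiation of human embryonic stem cells. These 9 genes were taken as members of the mitochondrial cell death pathway and of the p53 axis, and were found by their Entrez gene IDs among 19390 listed IDs. RNA was sequenced from wild-type H1 cells, an established human embryonic stem cell line, undifferentiated at day 0 and at days 2, 3 and 4 of differentiation. The cells were given activin A at 40 ng/ml and BMP4 at 50 ng/ml for 2 days, and then VEGF at 40 ng/ml and bFGF at 50 ng/ml for 2 days, in a custom mTeSR1 medium. All 4 libraries come from the same line, and each day is 1 library, so no difference between days has a replicate check and no p-value is given.

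Proteins of the BCL2 family decide whether the outer mitochondrial membrane stays sealed. Pro-survival members hold the effectors BAX and BAK in check, BH3-only members bind the pro-survival proteins and release that hold, and released effectors open the membrane so that cytochrome c leaves and caspases are activated. The transcription factor p53 switches on several of these genes, and MDM2, itself a p53 target, marks p53 for destruction. Human embryonic stem cells are known for a low threshold to apoptosis.

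MDM2 and PMAIP1 are the members whose promoter windows lay closest to the p53 consensus site, 20 bases made of 2 abutting repeats of 10, and those windows are shown because the results turn on PMAIP1 and on the p53 axis. Both are RefSeq sequences of GRCh38.p14, a later build than the one named for the deposited files. Capitals mark each stretch of at most 3 mismatches to the consensus, which reads the same on both strands. The MDM2 window, chr12:68808767-68809001 on the plus strand, lies inside the gene, touches no exon of GENCODE 29 and ends 16 bases before the downstream start listed for the gene. The PMAIP1 window, chr18:59899746-59899947 on the plus strand, lies before the gene and ends 49 bases before its listed start.
MDM2: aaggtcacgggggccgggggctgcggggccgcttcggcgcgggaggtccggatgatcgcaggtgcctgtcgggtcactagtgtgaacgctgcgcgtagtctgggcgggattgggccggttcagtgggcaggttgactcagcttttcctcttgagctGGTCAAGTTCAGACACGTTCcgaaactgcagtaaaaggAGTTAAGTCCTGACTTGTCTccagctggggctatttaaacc
PMAIP1: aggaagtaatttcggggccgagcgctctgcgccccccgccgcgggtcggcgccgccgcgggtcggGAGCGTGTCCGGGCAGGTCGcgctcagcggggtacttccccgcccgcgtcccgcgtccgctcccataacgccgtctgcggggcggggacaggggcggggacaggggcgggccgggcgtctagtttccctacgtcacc
In MDM2 the stretch at 68808923 to 68808942 had 2 mismatches and that at 68808961 to 68808980 had 3. In PMAIP1 the stretch at 59899811 to 59899830 had 3. Of 35116 promoters scanned over 250 bases before the start, 0.561% held a stretch of at most 2 mismatches and 4.36% one of at most 3. The closest stretches before the upstream MDM2 start and in BBC3 had 5 mismatches, as close as in 64.5% of promoters, those in BAX and BAK1 had 4 (22.1%), and those in BCL2 and BCL2L1 had 6 (95.7%). The table matched 7 of the 9 members, without BIK and MCL1. The closest stretch in CDKN1A, another p53 target gene, also had 5 mismatches (64.5%). A match describes letters and not a bound site. The lack of a close match in these 250 bases does not show that a gene has no p53 site. The deposited files count MDM2 under a single transcript model, so RNA from its upstream and downstream starts was not separated.

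Library totals ran from 5.04 M to 5.49 M expected counts, and 1 read was worth 0.182 to 0.196 CPM, the reads of a gene scaled to library size. All 95% intervals cover counting error only. Summed marker levels followed the labelled days, but not every single marker did. The 8 pluripotent cell markers summed to 729 CPM at day 4 and 8083 CPM at day 0, and the 6 primitive streak markers to 1.55, 657, 356 and 77.2 CPM over the 4 days. The 10 endothelial markers summed to 256, 434, 1090 and 1496 CPM, of which KDR made up 209, 354, 868 and 942 CPM. The 9 blood cell markers summed to 30.1, 23.3, 25.3 and 51.4 CPM, of which SPN made up 17.3 to 20.4 CPM. HBZ had 0 counts in every library, and the globin gene HBE1 and GATA1 had 0 at days 0, 2 and 3. The 6 endoderm markers summed to 10.1, 211, 259 and 338 CPM. Of this, GATA4 made up 0.58, 109.5, 125 and 125.8 CPM and SOX17 0.19, 90.4, 89.1 and 55.25 CPM. Some single markers went against their sums. AFP and APOB of the endoderm list were lower at day 2 than at day 0. Over the 4 days AFP had 22, 7, 35 and 125 reads and APOB had 25, 6, 42 and 220. PTPRC of the blood list fell, with 28, 9, 6 and 4 reads over the 4 days. PRDM14 of the pluripotent list had 11 reads at day 2 and 31 at day 3. In such bulk RNA, fewer cells of a type and less RNA per cell cannot be told apart, and the part of this changing mixture of cells in any difference below was not tested.

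BCL2 family RNA was present at every day, but its members differed widely in level and BCL2 itself was near the bottom. The levels are given per transcript length, as deposited FPKM. At day 4, BAX and MCL1 stood together at 92.6 and 92.5 FPKM, followed by BCL2L1 with 54.4, MDM2 with 31.3, PMAIP1 with 24.2, BAK1 with 15.2, BBC3 with 5.83, BCL2 with 0.46 and BIK with 0.39 FPKM. The counting intervals of BAX and MCL1 overlapped, as did those of BCL2 and BIK. At day 0, MCL1 led with 123 FPKM, followed by PMAIP1 with 68.1, BAX with 63.4, BCL2L1 with 44.1, MDM2 with 36.5, BAK1 with 17.1, BBC3 with 4.91 and BCL2 with 0.84 FPKM. Neighbours in that order were apart by more than their counting intervals except PMAIP1 and BAX. BAX thus stood level with MCL1 at day 4, while PMAIP1 held the fifth place at day 4 and the second place at day 0.

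**Figure D1:**
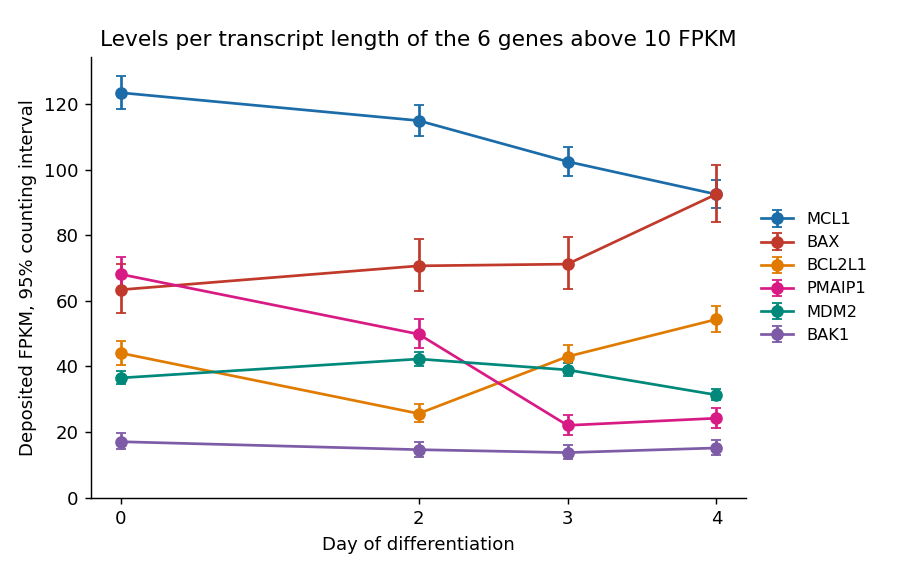
Deposited FPKM (vertical axis) of the 6 members above 10 FPKM at days 0, 2, 3 and 4 (horizontal axis), 1 library per day, with bars for 95% counting intervals. MCL1 declined to 92.5 FPKM at day 4 where BAX met it at 92.6, and PMAIP1 dropped below BCL2L1 and MDM2 at day 3.

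Among the pro-survival genes, MCL1 was abundant and drifted down, BCL2L1 dipped at day 2 and then passed its day 0 level, and BCL2 was scarce throughout. MCL1, which encodes a short-lived protein that restrains BAK, measured 463, 447, 393 and 344 CPM at days 0, 2, 3 and 4. It stood at or above 97.4 to 98.4% of listed genes in each library and never differed between days by the 2-fold rule used here. That rule asks for at least 1 CPM in either library and a difference of at least 1 in log2(CPM + 1). MCL1 was 1.35-fold lower at day 4 than at day 0 (95% counting interval 1.27 to 1.43).

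BCL2L1, the gene of BCL-XL and of its short splice form BCL-XS, measured 110.5, 67.3, 111 and 139.95 CPM at days 0, 2, 3 and 4. Day 2 was the low library and day 4 the high one. It was 1.64-fold lower at day 2 than at day 0 (1.43 to 1.88), 1.65-fold higher at day 3 than at day 2 (1.44 to 1.90), and 1.26-fold higher at day 4 than at day 3 (1.13 to 1.40). Only day 4 over day 2 met the 2-fold rule, at 2.08-fold (1.83 to 2.37), so the dip and the return were each within it. Gene-level values do not separate the long and the short splice form.

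BCL2, the founding pro-survival gene, had 25, 7, 16 and 16 reads, or 4.85, 1.37, 3.09 and 2.91 CPM, at days 0, 2, 3 and 4. It was 3.53-fold lower at day 2 than at day 0 (1.48 to 9.67), and no other interval between the compared days excluded a ratio of 1. The low read number makes this the least certain of the differences called among the members. The deposited mean transcript length of BCL2 was 5891, 6492, 2713 and 6281 bases at the 4 days, against 2565 to 2575 bases for BCL2L1. The same 16 reads at days 3 and 4 therefore stand as 1.13 and 0.46 FPKM, and BCL2 was highest at day 3 on FPKM but at day 0 on CPM. Of the FPKM summed over the 3 pro-survival genes, MCL1 took 73.3, 81.7, 69.9 and 62.8% at days 0, 2, 3 and 4, BCL2L1 26.2, 18.2, 29.3 and 36.9%, and BCL2 at most 0.771%.

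**Figure D2:**
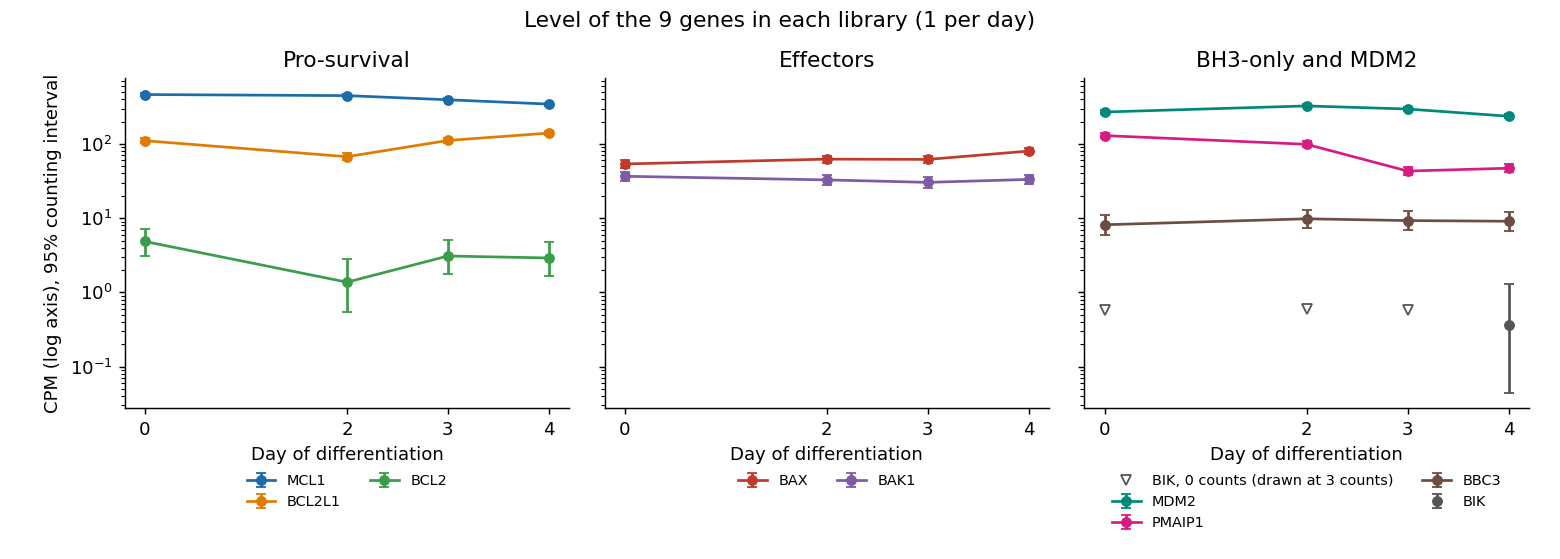
CPM (vertical log axis) of the 9 genes at days 0, 2, 3 and 4 (horizontal axis), 1 library per day, in panels by role, with 95% counting intervals. Open triangles mark BIK libraries with 0 counts, drawn at the level of 3 counts. MCL1 and MDM2 lie highest, PMAIP1 steps down between days 2 and 3, and BCL2 has the widest intervals of the genes seen at every day.

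Neither effector gene met the 2-fold rule in any of the 5 comparisons. BAX, which moves from the cytosol to the mitochondria when activated, measured 53.7, 62.4, 61.8 and 80.2 CPM at days 0, 2, 3 and 4. Day 4 was the highest library, 1.49-fold above day 0 (1.28 to 1.74) and 1.30-fold above day 3 (1.12 to 1.50), and within the rule. BAK1, whose protein already sits in the outer mitochondrial membrane, measured 36.7, 32.8, 30.3 and 33.3 CPM. No interval for BAK1 excluded a ratio of 1, and that of day 4 over day 0 ran from 0.736 to 1.12. BAX had 3.72 times the FPKM of BAK1 at day 0 and 4.83, 5.18 and 6.11 times at days 2, 3 and 4. BAK1 has the pseudogenes BAK1P1 and BAK1P2 in RefSeq, which can share reads with it, although its counts were whole in all 4 libraries.

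Among the BH3-only genes, PMAIP1 was much lower after day 2, BBC3 was low and level, and BIK was close to undetected. PMAIP1, which encodes NOXA, a protein that binds MCL1 and speeds its degradation, measured 129.5, 98.9, 43.1 and 47.1 CPM at days 0, 2, 3 and 4. The 2 early libraries were both above the 2 late ones. PMAIP1 was 1.31-fold lower at day 2 than at day 0 (1.17 to 1.47), within the rule, and 2.29-fold lower at day 3 than at day 2 (1.96 to 2.70). Day 4 was 2.75-fold below day 0 (2.38 to 3.19) and did not differ from day 3 beyond counting error (ratio 1.09, 0.910 to 1.31). The ratio of MCL1 to PMAIP1 in FPKM was 1.81, 2.31, 4.65 and 3.82 at days 0, 2, 3 and 4.

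BBC3, which encodes PUMA, a BH3-only protein that binds all the main pro-survival proteins, had 42, 50, 48 and 50 reads, or 8.15, 9.81, 9.28 and 9.09 CPM. Its ratio of day 4 to day 0 was 1.12 (0.725 to 1.72). BIK, a BH3-only gene whose protein resides largely at the endoplasmic reticulum, had 0 reads at days 0, 2 and 3 and 2 reads at day 4. A count of 0 allows up to 0.580 to 0.588 CPM (3 counts) in those libraries, so BIK was not measurable at this depth and no fold is given.

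MDM2, the ubiquitin ligase gene of the p53 loop, measured 269, 325, 295 and 236 CPM at days 0, 2, 3 and 4. Day 2 was its high library and day 4 its low one. It was 1.21-fold higher at day 2 than at day 0 (1.12 to 1.30) and 1.38-fold lower at day 4 than at day 2 (1.28 to 1.48), within the 2-fold rule. MDM2 counts were not whole numbers in any library, so reads were divided with other gene models, and its RefSeq gene overlaps that of carboxypeptidase M, which itself had 7.26 to 11.6 CPM.

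PMAIP1, BCL2 and BCL2L1 were the members that met the 2-fold rule in at least 1 of the 5 comparisons. At day 2 over day 0, 0 members were higher and 1 was lower (BCL2), with 8 members measured, while 12.9% of 15379 genes were higher and 8.81% lower. At day 3 over day 2, 0 were higher and 1 was lower (PMAIP1), against 5.82% higher and 3.51% lower of all genes. At day 4 over day 3, 0 members were called, against 2.96% higher and 4.25% lower. At day 4 over day 2, 1 was higher (BCL2L1) and 1 lower (PMAIP1), against 8.18% higher and 7.6% lower. At day 4 over day 0, 0 were higher and 1 was lower (PMAIP1), against 16.1% higher and 11.9% lower. With 8 measured members, these counts are close to the shares over all genes. The medians of the members' log2 differences were -0.10, -0.09, 0.05, -0.04 and -0.16 in those 5 comparisons, and those over all genes lay between -0.01 and 0.03. Comparisons that share a library are not independent of each other.

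**Figure D3:**
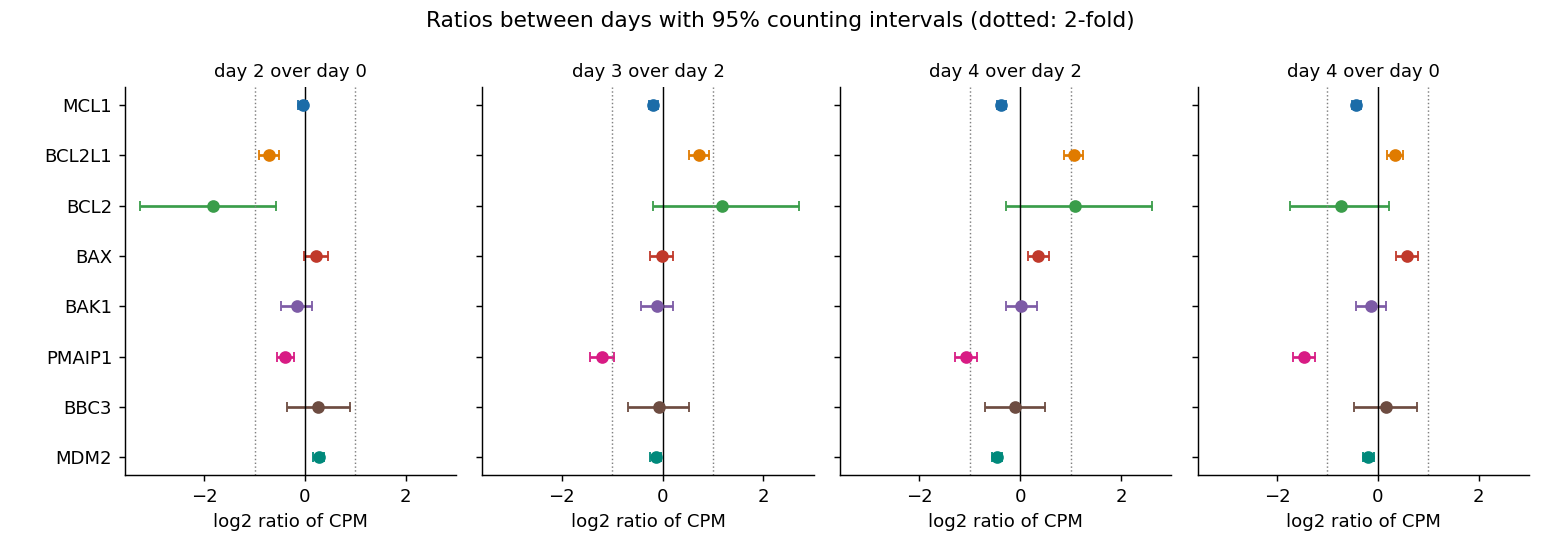
Log2 ratio of CPM (horizontal axis) of 8 members (rows) in 4 comparisons of days, with 95% counting intervals, and dotted lines at 2-fold. BIK is not drawn. PMAIP1 lies below the lower 2-fold line at day 3 over day 2, day 4 over day 2 and day 4 over day 0, and BCL2 has the widest interval in each panel.

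PMAIP1, BCL2 and BCL2L1 had the widest ranges of the members over the whole course, and the other measured members narrower ones. This largely restates the calls, since the range is the largest difference in log2(CPM + 1) between any 2 days. The range of log2(CPM + 1) over the 4 days was 1.57 for PMAIP1, 1.30 for BCL2, 1.05 for BCL2L1, 0.57 for BAX, 0.46 for MDM2, 0.43 for MCL1, 0.26 for BAK1 and 0.24 for BBC3. That of PMAIP1 was as large as or larger than in 79.7% of 16085 genes of at least 1 CPM, that of BCL2 than in 72.5%, and that of BCL2L1 than in 61.6%. For BAX, MDM2 and MCL1 the share was 29.5, 19.8 and 16.9%, and for BAK1 and BBC3 it was 5.65 and 4.54%. The median range was 0.51 over the 8 measured members and 0.84 over all these genes.

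**Figure D4:**
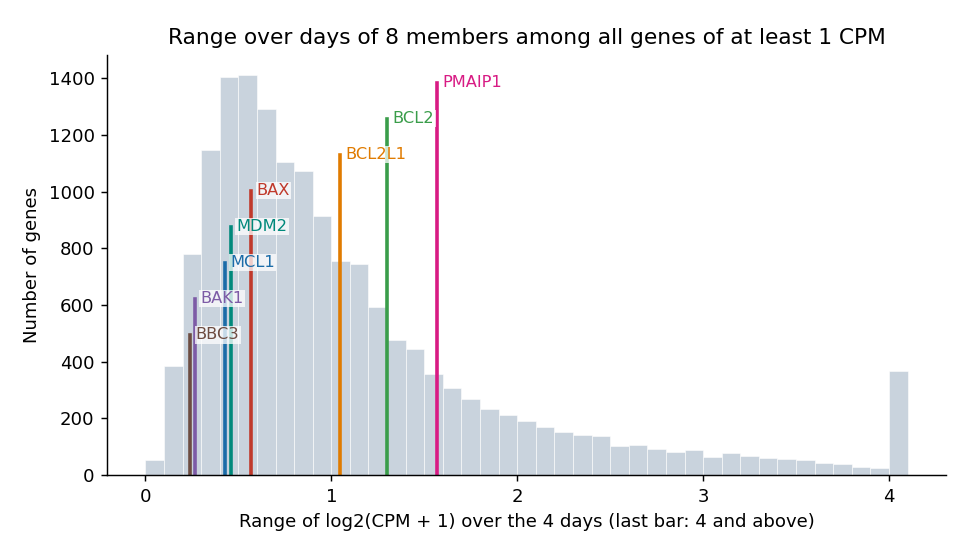
Number of genes (vertical axis) by the range of log2(CPM + 1) over the 4 days (horizontal axis), for 16085 genes of at least 1 CPM on some day, with lines at 8 members (their heights carry no value). BBC3 and BAK1 lie at the left edge with ranges of 0.24 and 0.26, and PMAIP1 lies farthest right at 1.57.

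For the 3 members of widest range, the genes of most like course were found by the Euclidean distance between centred log2(CPM + 1) profiles over 4 libraries, among 11565 genes of at least 10 CPM in some library. Nearest to PMAIP1 were ADGRB2 (distance 0.11), LGALS3BP (0.14) and STK38L (0.21), with STK38L, a protein kinase gene, at 112, 73.4, 36.9 and 42.7 CPM. Nearest to BCL2 were EEF2K (0.09), TCN2 (0.11) and NAV1 (0.12), and nearest to BCL2L1 were MIR550A3HG (0.10), LPCAT4 (0.12) and OPN3 (0.12). BCL2 itself had 25, 7, 16 and 16 reads, under 10 CPM at every day. Counting error in its profile leaves its nearest genes uncertain. Over 4 points many genes lie close to any profile: 13, 25 and 69 genes lay within a distance of 0.3 of PMAIP1, BCL2 and BCL2L1.

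Other targets of p53 and its relatives and regulators were read beside the members. CDKN1A, the gene of the cell cycle inhibitor p21, measured 36.3, 91.2, 105 and 125 CPM, 2.52-fold higher at day 2 than at day 0 (2.12 to 3.00). PMAIP1 was at its lowest levels at days 3 and 4, when CDKN1A was at its highest.

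Of 24 other p53 target genes, all measured, 6 were higher and 0 lower at day 2 than at day 0, and 8 were higher and 0 lower at day 4 than at day 0, with a median log2 difference of 0.43 and 0.31. The shares over all genes were 12.9% higher and 8.81% lower at day 2 over day 0, and 16.1% higher and 11.9% lower at day 4 over day 0. The other 16 target genes met the rule in neither direction at day 4 over day 0. Among them TRIAP1 and CCNG1 had their highest values at days 0 and 2, as PMAIP1 had. TRIAP1 measured 44.4, 44.3, 32.3 and 37.8 CPM over the 4 days, and CCNG1 610, 595, 557 and 550 CPM. The counting interval of TRIAP1 at day 4 (32.8 to 43.3 CPM) overlapped that at day 0 (38.8 to 50.6 CPM). Others of the 16 were also highest at day 0, as PMAIP1 was. Among them, RRM2B measured 144, 95.3, 106 and 98.5 CPM and TP53I3 30.25, 20.2, 25.9 and 21.45 CPM over the 4 days. In the other 3 comparisons 0 of the 24 were called. GADD45A, a growth arrest gene, was 3.62-fold higher at day 2 than at day 0 (2.84 to 4.67), the antiproliferative BTG2 3.93-fold (3.03 to 5.17) and TP53INP1, a p53 cofactor gene, 2.95-fold (2.51 to 3.48). The remaining higher genes were POLK and PERP at both days and PHLDA3 and SPATA18 at day 4. Of 10 genes of p53 relatives and regulators, 0 were called at day 2 over day 0 (9 measured), and 2 were higher and 1 lower at day 4 than at day 0. The higher ones rest on few reads, with TP63, the p53 relative, at 3, 8, 25 and 24 reads and CDKN2A at 1, 4, 11 and 8 reads over the 4 days. ATM, the DNA damage kinase gene, was 2.16-fold lower at day 4 than at day 0 (1.89 to 2.48). CHEK2, a checkpoint kinase gene, measured 49.3, 33.2, 27.1 and 24.5 CPM over the 4 days, and its log2(CPM + 1) difference of -0.98 at day 4 over day 0 lay just within the rule. At day 3 over day 2 and at day 4 over day 2, TP63 was the 1 gene of that list called higher, and 0 were lower. The 8 mitosis genes summed to 1613 to 2058 CPM, with 0 called in each comparison. Over all genes, 2.96 to 16.1% were higher and 3.51 to 11.9% lower in the 5 comparisons. With 8 genes, 0 called does not show that their levels stayed the same.

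**Figure D5:**
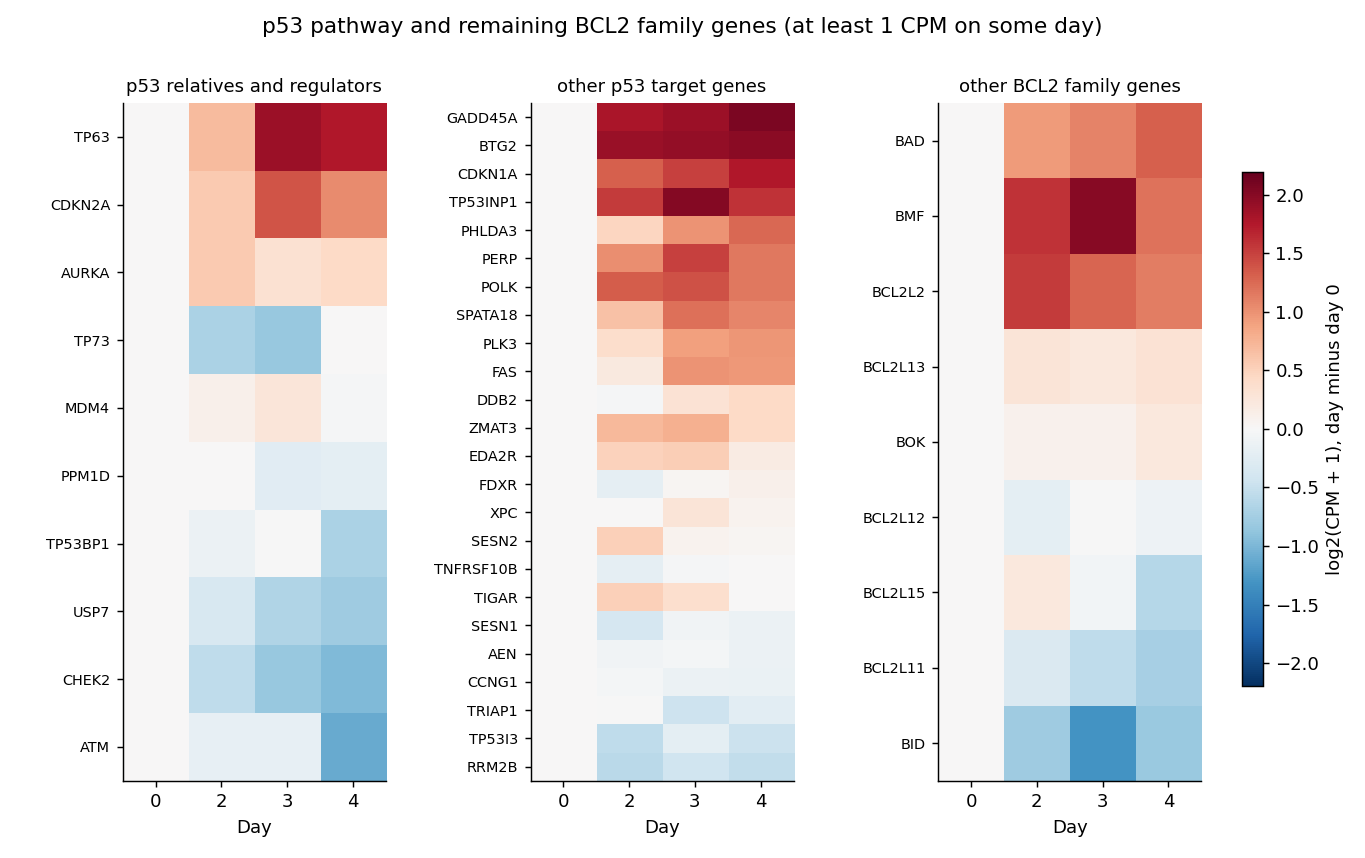
Difference in log2(CPM + 1) from day 0 (colour, red higher and blue lower) at days 0, 2, 3 and 4 (columns) for genes (rows) of p53 relatives and regulators, other p53 target genes and other BCL2 family genes of at least 1 CPM on some day. GADD45A, BTG2 and CDKN1A are red from day 2, BID is blue, and most rows are pale.

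Of 13 other BCL2 family genes, 9 were measured in each comparison. At day 2 over day 0, 2 were higher and 0 lower, against 12.9% higher and 8.81% lower of all genes. At day 4 over day 0, 3 were higher and 0 lower, against 16.1% higher and 11.9% lower. BMF, a BH3-only gene, measured 22.5, 70.0, 93.2 and 52.5 CPM at days 0, 2, 3 and 4 and was 3.11-fold higher at day 2 than at day 0 (2.52 to 3.87). The BH3-only genes moved differently among themselves, since PMAIP1 lay below its day 0 level at days 2, 3 and 4 and BMF above its own. BAD, the BH3-only gene of growth factor signalling, measured 4.65, 9.81, 11.02 and 13.1 CPM, 2.81-fold higher at day 4 than at day 0 (1.75 to 4.67). BID, which links death receptors to mitochondria, measured 30.4, 17.3, 11.6 and 16.9 CPM and was 1.76-fold lower at day 2 than at day 0 (1.35 to 2.32), within the rule. Its range of log2(CPM + 1) was 1.32, between days 0 and 3, a pair of days that was not among the 5 comparisons. The pro-survival BCL2L2, or BCL-W, measured 12.6, 38.4, 32.1 and 28.7 CPM and was among the higher genes in both comparisons. It shares reads with the read-through model BCL2L2-PABPN1, at 173, 125, 134 and 149 CPM, so its level and its calls are uncertain. The pro-survival gene BCL2A1 was listed in no library.

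Downstream of the mitochondria, 15 of 16 apoptosome, caspase and IAP genes were measured in each comparison. At day 2 over day 0, 1 was higher (BIRC2) and 1 lower (CASP9), and at day 4 over day 0, 2 were higher (BIRC2 and HTRA2) and 1 lower (CASP9). Over all genes 12.9% were higher and 8.81% lower at day 2 over day 0, and 16.1% and 11.9% at day 4 over day 0, so these counts lie at or below the shares over all genes. At day 4 over day 2, 1 was lower (CASP6), and in the other 2 comparisons 0 were called. CASP9, the caspase of the apoptosome, had 68, 17, 29 and 30 reads and was 3.95-fold lower at day 2 than at day 0 (2.30 to 7.18). CASP6 was 2.24-fold lower at day 4 than at day 2 (1.74 to 2.91). BIRC2, the gene of the ubiquitin ligase cIAP1, measured 46.7, 101, 96.8 and 122 CPM and was 2.61-fold higher at day 4 than at day 0 (2.25 to 3.04). HTRA2, a mitochondrial protease gene, measured 12.2, 19.4, 12.4 and 25.4 CPM and was 2.08-fold higher at day 4 than at day 0 (1.54 to 2.85).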

How the data were processed

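RNA of 4 libraries was counted by the authors. The authors' expected (estimated) counts per Entrez gene were deposited unscaled, per the file headers. Per the submitters' processing notes the tools were BWA, Bowtie and RSEM with hg19 as the assembly, with no version or role stated. The design text also names TopHat and Cufflinks. Expected counts were rounded, and a gene not listed was taken as 0. The deposited FPKM served for levels between genes and as an alternative. RefSeq tables of GRCh38.p14 named 19273 of 19390 IDs (TDGF1 through a synonym).

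CPM used TMM factors (edgeR 4.0.16, R 4.3.3), and other steps Python 3.11.15 with scipy 1.17.1. The rule of size (2-fold on log2(CPM + 1), minimum 1 CPM in either library) was applied to all genes in 5 comparisons. CPM have exact Poisson and ratios exact conditional binomial 95% intervals. Named genes were all members, up to 4 genes of widest range per list, CDKN1A, and the 3 most like genes of 3 members. BCL2L2-PABPN1, the carboxypeptidase M gene, POLK, PERP, PHLDA3, SPATA18, TRIAP1, CCNG1, SPN, KDR, PTPRC, PRDM14 and BCL2A1 were added after their values were seen. So were RRM2B, TP53I3, GATA4, SOX17, AFP and APOB. Some genes of the lists are not reported here. The members and lists were chosen with earlier results of these data known. Alternatives were median-of-ratios factors, a common total, pseudocounts of 0.1 and 5, no filter, a minimum of 5 CPM, deposited FPKM and a 4-fold threshold.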

Additional observations from a re-analysis of the deposited data

How the results depend on the processing

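With 1 library per day, no library could be left out. No paired analysis was possible because the labels carry no replicate numbers and each day is 1 library. Of 272 log2 differences of single members under 7 alternatives, 268 kept their side of the 2-fold rule and 0 that met it changed sign. Dropping the filter or setting it at 5 CPM cannot change a difference that stays in, so those values are the same by construction. BCL2 failed the minimum of 5 CPM in all 5 comparisons. On FPKM it failed the filter at day 2 over day 0, day 4 over day 2 and day 4 over day 0. Those cases are not among the 272. Of the differences near 0, BAX at day 3 over day 2 (-0.01) was 0.01 with a common total and on FPKM, and BBC3 at day 4 over day 3 (-0.03) was 0.02 on FPKM. BCL2 left the rule at day 2 over day 0 with a pseudocount of 5 (-0.63, against -1.30) and met it with a pseudocount of 0.1 at day 3 over day 2 (1.12) and at day 4 over day 2 (1.03). PMAIP1 at day 4 over day 2 stood at -0.996 with a pseudocount of 5. The member called at day 2 over day 0 was not called (0 members) with a pseudocount of 5, a minimum of 5 CPM, deposited FPKM or a 4-fold threshold. At day 3 over day 2 the count was 2 with a pseudocount of 0.1 and 0 at 4-fold, at day 4 over day 2 it was 1 with a pseudocount of 5 and 0 at 4-fold, and at day 4 over day 0 it was 0 at 4-fold. Leaving out the filter changes nothing by construction, since a difference of 1 on this scale needs 1 CPM.

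For all genes, the higher and lower counts at days 2 over 0, 3 over 2, 4 over 3, 4 over 2 and 4 over 0 were 1978 and 1355, 889 and 536, 455 and 653, 1260 and 1171, and 2514 and 1860. With a pseudocount of 5 they were 1231 and 633, 374 and 192, 127 and 206, 607 and 609, and 1560 and 1056. At 4-fold they were 712 and 297, 202 and 62, 58 and 35, 357 and 215, and 981 and 538. With a pseudocount of 0.1, 847 were lower at day 3 over day 2, and 751 higher and 1062 lower at day 4 over day 3. With a minimum of 5 CPM, 352 were lower at day 3 over day 2 and 261 higher at day 4 over day 3, and on FPKM 412 were lower at day 4 over day 3. Of the 9 most like genes, 4, 2, 2 and 0 were shared with a pseudocount of 0.1, one of 5, FPKM and Pearson's r, so these names depend on the measure. Counts under 30 reads in at least 1 library limit BCL2, BIK, BAD, CASP9, TP63 and CDKN2A. The same holds for the markers PTPRC, PRDM14, GATA1, HBE1, HBZ, GATA4, SOX17, AFP and APOB. Other markers in the sums were as low in some libraries, such as the 6 primitive streak markers at day 0.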
